A study of Mus musculus with 2 samples.

Results

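Heat shock proteins and chaperonins were examined in LSK cells, the lineage-negative, Sca-1-positive, c-Kit-positive bone marrow cells that hold blood stem cells and multipotent progenitors. The genes were chosen by the name printed on the array: every heat shock protein gene of the Hspa to Hspe, Hsph and Hsp-number series (Hspg2, a matrix proteoglycan, was left out), every J-domain gene of the A, B and C series, every Cct gene, and Tcp1, Hsf1 and Hsf2. This gave 75 genes with 142 probes, of 41174 probes in all. A gene counted as measured when at least 1 of its probes was well above background on both arrays, which held for 69 of the 75 genes, against 17020 genes over the whole array. Each gene is represented by the brightest of its measured probes.

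The study compared LSK cells of PAD4-deficient mice with LSK cells of wild-type mice, both of the C57BL/6 strain, with 1 array each. PAD4, encoded by Padi4, turns arginine residues of histones and other proteins into citrulline. The cells were sorted by flow cytometry with lineage, Sca-1 and c-Kit antibodies, total RNA was taken with Trizol, and Cy3-labelled RNA was hybridised to 1-colour arrays on the same slide. The deleted part of Padi4, the age and sex of the mice, and whether mice were pooled are not stated in the labels. With 1 array per genotype no difference below has a replicate check, so no test was made, and the errors printed are scanner errors of the spots only.

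Heat shock proteins are molecular chaperones: they bind unfolded or newly made proteins and let them fold, or hand them on to a protease. HSP70 proteins work by cycles of ATP hydrolysis that J-domain proteins start, HSP110 proteins act as their nucleotide exchange factors, HSP90 proteins complete the folding of kinases and nuclear receptors, and the barrel-shaped chaperonins (HSP60 with its lid HSP10 in mitochondria, CCT in the cytosol) enclose a folding protein. Under heat or proteotoxic stress the factor HSF1 binds heat shock elements and induces the cytosolic and mitochondrial genes, whereas chaperones of the endoplasmic reticulum (ER) answer to the unfolded protein response.

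On the PAD4-deficient array 26400 probes (64.1%) stood well above background, and 26310 (63.9%) did so on the wild-type array. Levels are given as processed signal, the background-subtracted brightness of a spot in arbitrary units, and differences as log2 of PAD4-deficient minus wild-type after each array was scaled to its 75th percentile. Padi4 itself had 2670 units in PAD4-deficient cells and 12879 in wild-type cells, a difference of -2.22 with an error of 0.20. Xist had 16255 units in PAD4-deficient cells and was not above background in wild-type cells. The Y-linked genes Ddx3y (1297 and 3455 units) and Eif2s3y (1076 and 2611 units) were above background on both arrays. The PAD4-deficient array thus held Xist together with Y-linked transcripts, and transcripts of sex-linked genes also separated the arrays. Marker genes of maturing blood cells were higher in PAD4-deficient cells: at least 1.5-fold in 7 of 12 measured erythroid, 4 of 11 neutrophil, 4 of 9 B cell, 4 of 8 plasma cell, 6 of 13 monocyte and dendritic, 5 of 7 mast cell and 2 of 8 T and NK cell markers, with 1 mast cell and 1 T and NK cell marker lower. Of all measured genes 2.88% were at least 1.5-fold higher and 1.87% lower. Of those with a mean signal under 100 units the shares were 6.94% and 3.43%. The neutrophil markers summed to 180383 units against 122577 in wild-type cells, the B cell markers to 18285 against 13181 and the plasma cell markers to 30775 against 30411. The erythroid markers summed to 30143 against 29547 units, the monocyte and dendritic ones to 88987 against 77711, the mast cell ones to 3953 against 2389, and the T and NK cell ones to 19091 against 20588. In PAD4-deficient cells 1 bright gene made up most of several sums. Mpo had 118188 units of the neutrophil sum, Ighm 24998 of the plasma cell sum and Car2 21958 of the erythroid sum. Lyz2 had 52969 of the monocyte and dendritic sum, and Nkg7 16115 of the T and NK cell sum. All sums are of signals before scaling. Markers without a value on both arrays included the erythroid markers Epb42, Hbb-b1 and Rhag and the plasma cell markers Igkc, Prdm1 and Tnfrsf17. The T cell markers Cd3d, Cd3g and Cd8a and the mast cell marker Tpsb2 had none either. The listed neutrophil name Ela2 matched no gene on the array, while Elane of the same list had 1086 units in PAD4-deficient and 296 in wild-type cells. The 12 markers of the sort and of stem cells summed to 149216 against 168293. The part of these cell types, and of sex, in the chaperone values was not tested, and in bulk RNA fewer cells of a type and less RNA per cell cannot be told apart.

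As a whole the heat shock and chaperonin genes differed little between the genotypes. The median difference of the 69 measured genes was 0.09, against 0.02 over all 17020 measured genes, with 52 genes above 0 and 17 below; 55% of all measured genes lay above 0. Only Hspb8 was at least 1.5-fold higher in PAD4-deficient cells, against 2.88% of all measured genes, and only Dnajb5 and Dnajb8 were at least 1.5-fold lower, against 1.87%. Spots of one probe printed several times differed little, and the spread that this gives a difference was 0.08. Beyond that spread 38 of the 69 genes were higher and 14 lower, against 39.2% and 31.2% of all measured genes. Beyond the scanner error of 0.20 or more, 20 were higher and 4 lower, against 2732 and 2396 of the 17020 genes. With each array scaled to its median instead, 10 members near 0 changed sides.

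The few genes past 1.5-fold were dim ones. Among all genes with a mean signal under 100 units, 6.94% passed 1.5-fold upward and 3.43% downward in PAD4-deficient cells, against 1.62% and 1.38% of the brighter ones. The 9 dim heat shock genes spanned differences of -1.33 to 0.94. The 60 genes with 100 units or more spanned only -0.33 to 0.44, with a median of 0.09, and 47 of them were above 0 against 54.4% of equally bright genes. Of these 60, 34 were higher and 11 lower beyond the spread between spots, against 37.1% and 31.2% of bright genes, and none reached 1.5-fold.

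**Figure D1:**
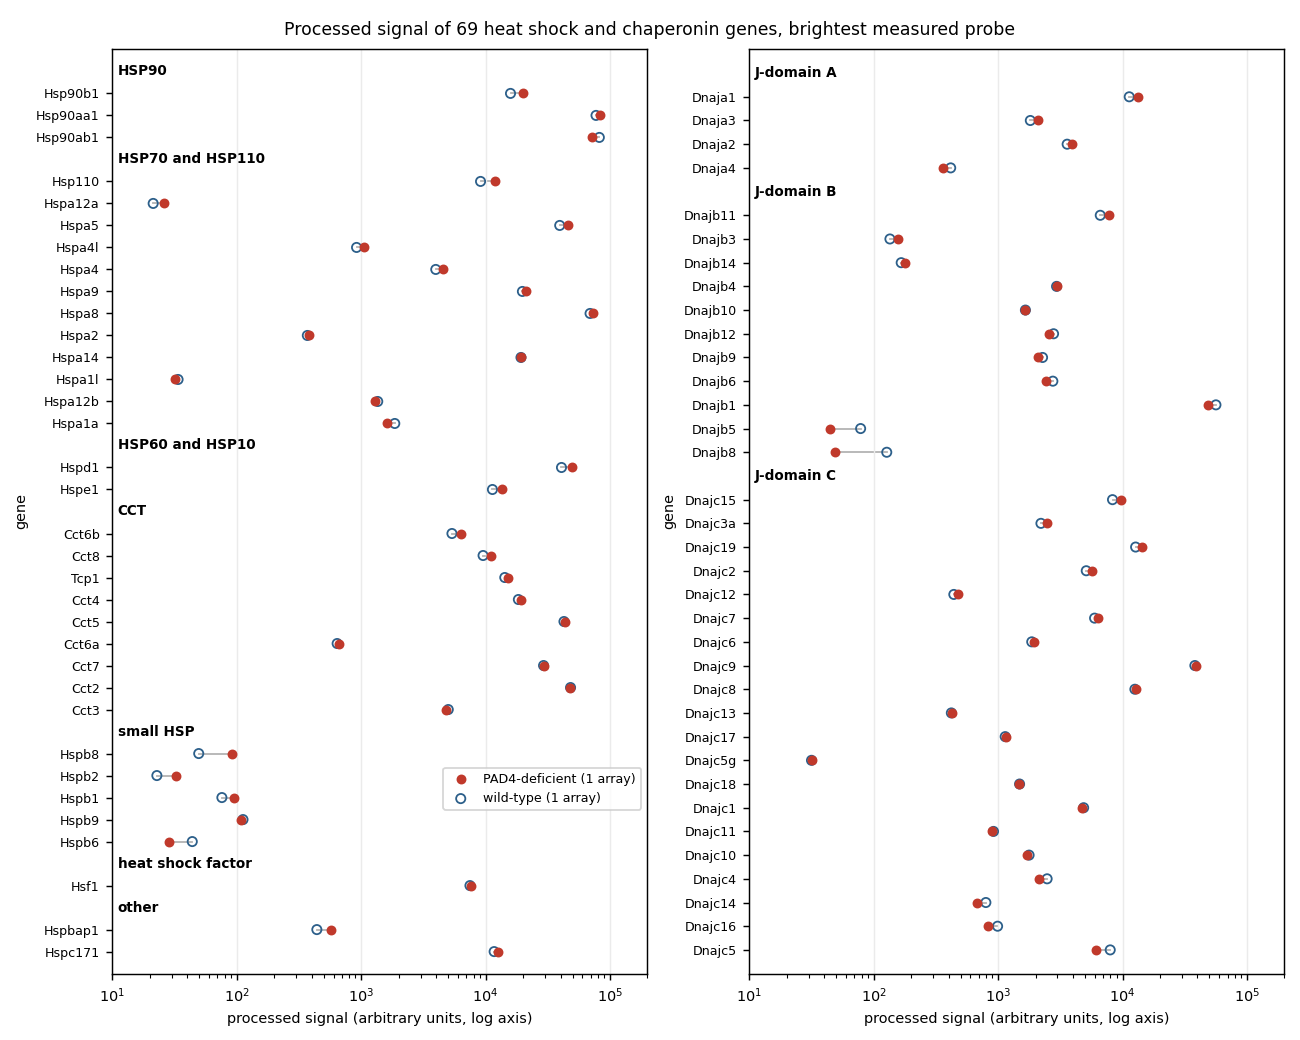
Processed signal (arbitrary units, log axis) of the brightest measured probe of 69 genes, with PAD4-deficient cells as filled points and wild-type cells as open circles, 1 array each, in classes from HSP90 to the J-domain C genes. Most pairs of points touch, and the widest gaps belong to dim genes such as Dnajb8, with 48.9 units in PAD4-deficient and 127 in wild-type cells.

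The HSP90 genes did not share a direction. Hsp90b1, the HSP90 of the ER lumen (GRP94), had 20015 units in PAD4-deficient cells against 15857 in wild-type cells, a difference of 0.39 with an error of 0.20. Its second probe gave 0.38, and 6.37% of all measured genes had a difference at least as high. The stress-inducible cytosolic gene Hsp90aa1 had 83103 units against 77183, a difference of 0.16. The constitutive cytosolic gene Hsp90ab1 had 71126 units against 82030, a difference of -0.16, and its second probe had 10961 against 13962, a difference of -0.30. Hsp90b1 was therefore the member of the class beyond its scanner error by both probes, and Hsp90ab1 passed it by 1 of 2 probes. The probe for Hsp90b1 lies at mm8 chr10:86120824-86120883 on the minus strand. Whether it lies in an exon or a UTR was not looked up, because the annotation at hand is of another build, and this holds for every probe below.

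Among the HSP70 and HSP110 genes, 9 of 12 were above 0, with a median of 0.13. The largest difference was that of Hsp110 (now Hsph1), the inducible nucleotide exchange factor of the cytosol, with 11802 units in PAD4-deficient cells against 9108 in wild-type cells. The difference was 0.42 with an error of 0.20 on a single probe, and 5.32% of all measured genes lay at least as high. Its relatives Hspa4l and Hspa4 differed by 0.25 and 0.24. All 4 probes of Hspa4l gave 0.22 to 0.35, whereas the 4 probes of Hspa4 ran from -0.13 to 0.24. So of the HSP110-type genes, Hsp110 and Hspa4l were higher by every probe and Hspa4 was not.

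Hspa5, the HSP70 of the ER lumen (BiP), had 46220 units in PAD4-deficient cells and 39417 in wild-type cells, a difference of 0.28. Hspa9, the HSP70 of the mitochondrial matrix (mortalin), had 21063 and 19763 units, a difference of 0.14, with 0.10 on its second probe. Hspa8, the constitutive HSP70 of the cytosol, had 72692 and 69114 units, a difference of 0.12 that turned to -0.14 on its second probe. Of these 3 constitutively expressed HSP70 genes, Hspa5 alone passed its scanner error.

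The stress-inducible Hspa1a had 1615 units in PAD4-deficient cells and 1862 in wild-type cells, a difference of -0.16, and all 4 of its probes were below 0, from -0.32 to -0.11. Hspa1b is a nearly identical copy next to it, so the signal cannot be assigned to Hspa1a alone. Hspa14, a ribosome-associated HSP70, differed by 0.05 and lay below 0 under median scaling, the testis-enriched Hspa2 by 0.09 and Hspa12b by -0.03. Hspa1l (-0.02) and Hspa12a (0.33, error 0.38) were dim, with 32.2 and 25.8 units in PAD4-deficient cells and 33.8 and 21.3 in wild-type cells, and neither passed its error.

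Hspd1 and Hspe1 encode HSP60 and its lid HSP10 and are transcribed away from each other from a shared stretch of DNA. Hspd1 had 49398 units in PAD4-deficient cells against 40731 in wild-type cells, a difference of 0.33, with 0.31 on its second probe. Hspe1 had 13543 units against 11350, a difference of 0.30. Their probes lie at mm8 chr1:55022530-55022589 on the minus strand and chr1:55035623-55035682 on the plus strand. The pair was thus higher by similar amounts and both passed the scanner error of 0.20, while 8.58% and 9.69% of all measured genes lay at least as high as Hspd1 and Hspe1.

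The promoter stretch of this pair is shown because 4 members carried the 3-unit heat shock element (GAANNTTC, any 2 bases, then GAA), searched on both strands, and this stretch serves a pair of them. Sequences are those of RefSeq for GRCm38.p6, from 250 bases before to 50 after each start, and 61 of the 75 members matched an entry. The 3-unit element was found in 4 of the 61 members (6.56%), namely Hspd1, Hspe1, Hsp110 and Dnajb6, against 0.662% of all 27025 genes in the promoter table. The 2-unit form GAANNTTC, which overlaps it, was found in 13 members (21.3%) against 9.04% of all genes, and the other 2-unit form, TTCNNGAA, in 8 (13.1%) against 9.60%. The windows of Hspd1 and Hspe1 overlap by 285 bases. Capitals mark the matches, which span 89 to 72 bases before the start of Hspe1 on the plus strand and 144 to 127 bases before the start of Hspd1 on the minus strand. The line for Dnajb6 lies on the plus strand with its capitals 127 to 115 bases before a start of that gene.
Hspe1 and Hspd1, chr1:55088014-55088121, plus strand: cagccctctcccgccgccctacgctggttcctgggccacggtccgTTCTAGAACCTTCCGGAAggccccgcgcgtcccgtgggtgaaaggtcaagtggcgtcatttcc
Dnajb6, chr5:29735807-29735909, plus strand: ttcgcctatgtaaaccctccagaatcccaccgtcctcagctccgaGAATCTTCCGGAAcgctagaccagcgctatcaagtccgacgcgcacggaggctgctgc
In Hspd1 and Hspe1 the stretch holds 2 overlapping matches, and in Hsp110 the match lay after the start. A match describes letters and not a bound site. Of the 4 genes, Hsp110, Hspd1 and Hspe1 were higher by 0.30 to 0.42, and Dnajb6, a cytosolic and nuclear J-domain protein that holds back aggregation, differed by -0.14 with -0.31 to -0.10 over its 3 probes.

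**Figure D2:**
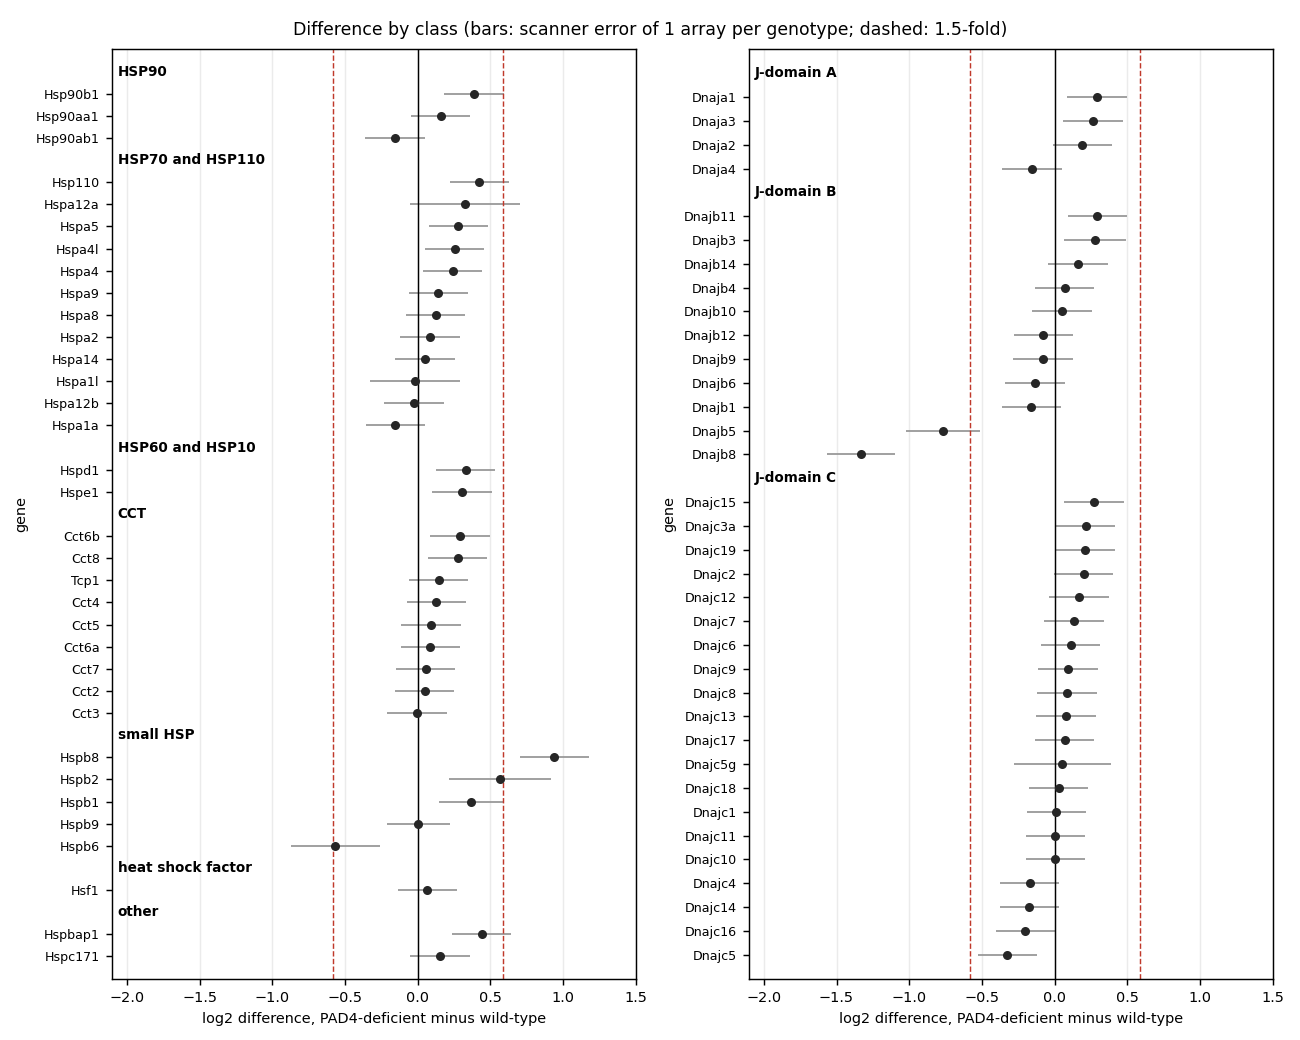
Log2 difference (PAD4-deficient minus wild-type) of 69 genes in classes, with bars for the scanner error and dashed lines at 1.5-fold. All but Hspb8, Dnajb5 and Dnajb8 lie between the lines, and Hsp110 (0.42), Hsp90b1 (0.39) and Hspd1 (0.33) lie above 0 by more than their bars.

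The CCT complex, the cytosolic ring that folds actin and tubulin, was even across its subunits. Of its 9 genes 8 were above 0, with a median of 0.09 and a range of -0.01 to 0.29, and none reached 1.5-fold. Cct6b, the testis-enriched copy of the zeta subunit, had 6342 units in PAD4-deficient cells and 5365 in wild-type cells, a difference of 0.29, and Cct8 had 11151 and 9544 units, a difference of 0.27. These 2 subunits, each with a single probe, were the ones past their scanner error by the brightest probe. Tcp1, the alpha subunit, had 15217 and 14263 units, a difference of 0.14. Cct4 differed by 0.13, Cct5 and Cct6a by 0.09 each, and Cct2 and Cct7 by 0.05 each. Cct6a, the other copy of the zeta subunit, was dimmer than Cct6b, with 657 units in PAD4-deficient and 641 in wild-type cells on a single probe. Cct3 differed by -0.01 on its brightest probe and by 0.45 on a dim probe with 66.1 and 50.2 units. With each array scaled to its median instead, Cct2 and Cct7 fell on the other side of 0.

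Prefoldin, the complex that delivers actin and tubulin chains to CCT, had a median of 0.10 over its 8 measured genes, with 6 above 0. Pfdn5 stood apart, with 6718 units in PAD4-deficient cells and 12346 in wild-type cells, a difference of -0.83, and -0.69 on its second probe. It was the only prefoldin gene past 1.5-fold, and the others ran from -0.02 to 0.28.

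The small heat shock proteins, which hold unfolded proteins without ATP, had signals of at most 112 units here. Of 7 genes 5 were measured, with a median of 0.37, which was 0.23 with normexp background correction, 0.19 when 1 array above background was enough and 0.092 without any signal filter. Hspb8, a partner of Bag3 in chaperone-assisted autophagy, had 91.6 units in PAD4-deficient cells and 49.5 in wild-type cells, a difference of 0.94 with an error of 0.24 on a single probe at mm8 chr5:116670053-116670112. It was the only member at least 1.5-fold higher, and 1.22% of all measured genes lay at least as high. At 2-fold, which Hspb8 did not reach, 1.01% of all measured genes and 2.24% of dim ones were higher in PAD4-deficient cells, and 0.631% of bright ones. With normexp background correction the difference of Hspb8 was 0.49 and no longer past 1.5-fold. Bag3 itself had 1203 and 1322 units, a difference of -0.09.

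Hspb1, the widely expressed HSP27 homologue of this class, had 94.7 units in PAD4-deficient cells and 75.9 in wild-type cells, a difference of 0.37 with an error of 0.22. Hspb2, known from muscle, had 32.6 and 22.8 units, a difference of 0.57 with an error of 0.35. Hspb6, also of muscle, had 28.6 and 43.9 units, a difference of -0.57 with an error of 0.31. Hspb9, a testis gene, had 109 and 112 units and lay within the spread between spots. So 3 of the 5 measured small heat shock genes were higher and 1 lower beyond the scanner error, all at signals under 100 units. With normexp background correction Hspb2 differed by 0.23 and Hspb6 by -0.12, both within the errors just given, whereas under quantile normalization, median scaling and loess Hspb6 passed 1.5-fold, at -0.64, -0.62 and -0.62. Hspb3 was below background on both arrays, as were Hsf2, Dnajb7, Dnajb13 and Dnajc5b. Hspb7, which lies on chromosome 4 as do Padi4 and other members such as Dnajc16 and Dnajb5, could be measured only on the wild-type array. It had 17.9 units in PAD4-deficient and 22.3 in wild-type cells. Its at-least fold was 1.16 lower, but its difference of -0.26 lay within its scanner error of 0.43, so this is no firm bound.

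J-domain proteins (HSP40) bring substrates to HSP70 and start its ATPase. Of 38 genes 35 were measured, with a median difference of 0.07, 24 above 0 and 11 below. The A series, the closest relatives of bacterial DnaJ, had a median of 0.23 over 4 genes. Dnaja1, a cytosolic partner of Hspa8, had 13376 units in PAD4-deficient cells and 11325 in wild-type cells, a difference of 0.29, with 0.05 to 0.29 over 3 probes. Dnaja2 differed by 0.19 and the mitochondrial Dnaja3 (TID1), with 2106 and 1816 units, by 0.26. Dnaja4 differed by -0.16. Dnaja1 and Dnaja3 passed their scanner errors by their brightest probes only.

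The B series was the class with a median below 0, at -0.08 over 11 measured genes, with 5 above 0 and 6 below. Dnajb1, the heat-inducible HSP40 of the cytosol, had 48678 units in PAD4-deficient cells and 56329 in wild-type cells, a difference of -0.16, and its second probe gave -0.29. Both probes were below 0 and 1 of them passed its error. Dnajb8, a testis-enriched gene that blocks aggregation, had 48.9 and 127 units, a difference of -1.33 with an error of 0.23 (mm8 chr6:88188771-88188830). It was the only member lower by 2-fold, against 0.476% of all measured genes, 1.05% of dim and 0.3% of bright ones, and its other probe was below background on both arrays. With normexp background correction the difference was -0.71, past 1.5-fold but not 2-fold.

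Dnajb5 had 44.6 units in PAD4-deficient cells and 78.6 in wild-type cells, a difference of -0.77 with an error of 0.25. Its other probes, equally dim, gave -0.11 and -0.06, so the 1.5-fold difference rested on 1 of 3 probes, and with normexp it was -0.35. On the higher side of the B series, Dnajb11, the ER partner of BiP, had 7840 and 6626 units, a difference of 0.29, and the dim Dnajb3 had 158 and 135 units, a difference of 0.28. Dnajb12 and Dnajb14, both of the ER membrane, differed by -0.08 and 0.16.

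The C series, which shares little beyond the J domain, had a median of 0.07 over 20 measured genes, with 16 above 0. The highest differences were those of Dnajc15 (0.27), Dnajc3a (0.21) and Dnajc19 (0.21). Dnajc15 and Dnajc19 are J proteins of the import motor at the mitochondrial inner membrane, and Dnajc3a (now Dnajc3, p58IPK) is a co-chaperone of the ER lumen. Dnajc5, the cysteine string protein of secretory vesicles, had the lowest difference, with 6138 units in PAD4-deficient cells and 7965 in wild-type cells. That difference was -0.33, but the other 2 probes of Dnajc5 gave -0.06 and -0.02. Dnajc16 differed by -0.20 and Dnajc14 by -0.17, and a dim second probe of Dnajc14 gave 0.47. Dnajc2, which works at the ribosome with Hspa14, gave 0.20 on both of its probes.

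Dnajc11, a protein of mitochondrial cristae, was printed in 10 spots on each array and shows the precision of a spot. Its spots ran from 852 to 967 units with a median of 885 in PAD4-deficient cells, and from 853 to 977 with a median of 931 in wild-type cells. The ranges overlapped nearly in full, and its difference lay within the spread between spots.

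Hsf1, the main heat shock factor, had 7571 units in PAD4-deficient cells and 7486 in wild-type cells, a difference of 0.07, and 0.01 to 0.07 over its 3 probes. Hspbap1, which binds Hspb1, had 576 and 440 units, a difference of 0.44 with an error of 0.20. It was the highest difference among the 60 brighter members. Hspc171 entered by its array name only, since its current symbol is Tmem208, an ER membrane protein that is no heat shock protein, and it differed by 0.15. Without it no count at 1.5-fold changes.

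The ER was divided into lumen and membrane after the values were seen, and all 11 ER genes together had a median of 0.03. Grouped by compartment with that division, the mitochondrial members and those of the ER lumen had the highest medians, 0.26 and 0.25. Their order turned with normexp (0.21 and 0.24) and with the mean over probes (0.20 and 0.25). All 7 mitochondrial members were above 0, and 5 passed their scanner errors: Hspd1 (0.33), Hspe1 (0.30), Dnajc15 (0.27), Dnaja3 (0.26) and Dnajc19 (0.21). Of all 17020 measured genes 55% were above 0, and 2732 were higher beyond their scanner errors. Hspe1 and Dnajc15 had 1 probe each, and the second probe of Dnaja3 gave 0.13 with an error of 0.21. Dnajc15 had 9678 units in PAD4-deficient cells and 8310 in wild-type cells. Dnajc19 had 14236 and 12743 units, but its 2 dim further probes gave -0.07 and -0.09. Hspa9 differed by 0.14, and Dnajc11 changed its side of 0 under median scaling, under loess, with the mean over its probes and in the authors' deposited table. The cytosolic and nuclear members had a median of 0.09 over 47 measured genes, 35 of them above 0. The difference between compartments was not tested.

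**Figure D3:**
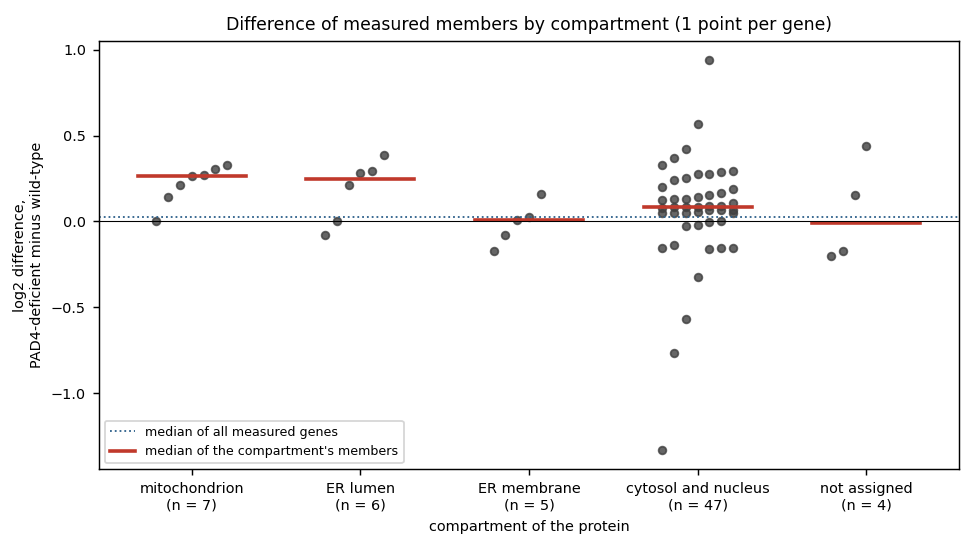
Log2 difference (PAD4-deficient minus wild-type) of each measured gene by the compartment of its protein, with thick lines at the medians and a dotted line at the median of all measured genes (0.02). The 7 mitochondrial points run from just above 0 to 0.33, 4 of the 6 ER lumen points lie between 0.21 and 0.39, and the cytosolic and nuclear points hold both extremes. The ER was divided into lumen and membrane after the values were seen.

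The other mitochondrial folding and import genes lay closer to the median of all genes. Their 16 genes, import receptors, import motor subunits, nucleotide exchange factors and proteases, had a median of 0.07, with 11 above 0. Grpel2, an exchange factor for Hspa9, differed by 0.24, the highest of the list. Trap1, the HSP90 of mitochondria, which the naming rule does not take in, had 3542 units in PAD4-deficient cells and 6109 in wild-type cells. Its difference was -0.74 on a single probe, the only one of the list past 1.5-fold and opposite in direction to Hspd1 and Hspe1.

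In the ER the members of the lumen lay higher than those of the membrane. The 6 genes of the lumen had a median of 0.25, with Hsp90b1 (0.39), Dnajb11 (0.29), Hspa5 (0.28) and Dnajc3a (0.21) past their scanner errors. Dnajc3a had 2476 units in PAD4-deficient cells and 2210 in wild-type cells, and its 4 probes gave 0.19 to 0.25. Dnajb9, which opposes IRE1, had 2081 and 2277 units, a difference of -0.08, and Dnajc10, an ER reductase, lay within the spread between spots on its brightest probe. The 5 genes of the membrane had a median of 0.01 and ran from -0.17 to 0.16, and none passed its scanner error by its brightest probe. Second probes of Dnajb12 (-0.26), Dnajc14 (0.47) and Dnajc18 (0.26) did pass theirs, in both directions. This division of the ER was made after the values were seen. Over all 11 ER genes the median was 0.03, with each array scaled to its median it was -0.03, and with the mean over probes it was 0.15. The mean over probes also brought the membrane median to 0.14, against 0.25 for the lumen.

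Of the 4 lumen genes past their scanner error, 3 carried the ER stress element (CCAAT, any 9 bases, then CCACG), the joint NF-Y and ATF6 motif, which was searched on both strands and was chosen after the values were seen. It was found in Hsp90b1, Hspa5 and Dnajc3a, 3 of 61 members (4.92%), against 0.137% of all genes. Because the element was chosen with the values of these genes known, that share is a description and not a test. The shorter CCAAT that the element contains was found in 29 members (47.5%) against 41.1% of all genes, and CACGTG in 8 (13.1%) against 8.09%. One stretch of each gene is shown in GRCm38.p6, with the matched letters in capitals. They lie 107 to 89 bases before the start of Hsp90b1, 65 to 47 before that of Hspa5 and 105 to 87 before that of Dnajc3a. In Hsp90b1 the match reads from the opposite strand, and that promoter holds a second match further upstream.
Hsp90b1, chr10:86705488-86705596, minus strand: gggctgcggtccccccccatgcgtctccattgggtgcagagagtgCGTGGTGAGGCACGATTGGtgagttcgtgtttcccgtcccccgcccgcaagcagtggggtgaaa
Hspa5, chr2:34771980-34772088, plus strand: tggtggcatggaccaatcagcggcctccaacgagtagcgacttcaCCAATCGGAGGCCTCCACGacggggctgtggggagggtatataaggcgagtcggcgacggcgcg
Dnajc3a, chr14:118937782-118937890, plus strand: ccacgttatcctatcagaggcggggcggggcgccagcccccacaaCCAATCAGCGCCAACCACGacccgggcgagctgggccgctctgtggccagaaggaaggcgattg
These 3 genes were higher by 0.39, 0.28 and 0.21. The matches are descriptions of these windows and say nothing of binding.

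Other folding enzymes of the ER lay mostly on the same side as the lumen chaperones. Of 18 genes 16 were above 0 by their brightest probes, with a median of 0.16. Sdf2l1, a partner of BiP and Dnajb11, was the only one at least 1.5-fold higher by its brightest probe. It had 2700 units in PAD4-deficient cells and 1857 in wild-type cells, a difference of 0.59. A second probe of Hyou1 gave 0.87, against 0.17 on its brightest. Of the 3 probes of Ero1b, the lowest gave -1.72, against 0.18 on its brightest. The disulphide isomerase Pdia4 differed by 0.49 and Manf, a secreted ER stress protein, by 0.42. The collagen chaperone Serpinh1 differed by -0.49 and Sil1, an exchange factor for BiP, by -0.21. Of the plasma cell markers 4 of 8 measured, and of the B cell markers 4 of 9, were at least 1.5-fold higher in the same PAD4-deficient cells. Of all measured genes 2.88% were. The part of these cell types in the ER values was not tested.

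The unfolded protein response, which induces these enzymes, showed no common direction. Its 14 genes had a median of -0.03, with 6 above 0. The sensors Eif2ak3 (PERK) and Ern1 (IRE1) differed by 0.33 and 0.29, and Atf6 by 0.20. The PERK-branch genes were on the other side: Atf4 at -0.29, Ppp1r15a at -0.39, Trib3 at -0.41 and Ddit3 at -0.43. Chac1, a glutathione-degrading enzyme induced through Atf4, had 84.9 units in PAD4-deficient cells and 136 in wild-type cells, a difference of -0.63, the only gene of the list past 1.5-fold by its brightest probe, while a second probe of Trib3 gave -0.76. Xbp1, whose transcript IRE1 splices, had 1260 and 1183 units, a difference of 0.14.

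**Figure D4:**
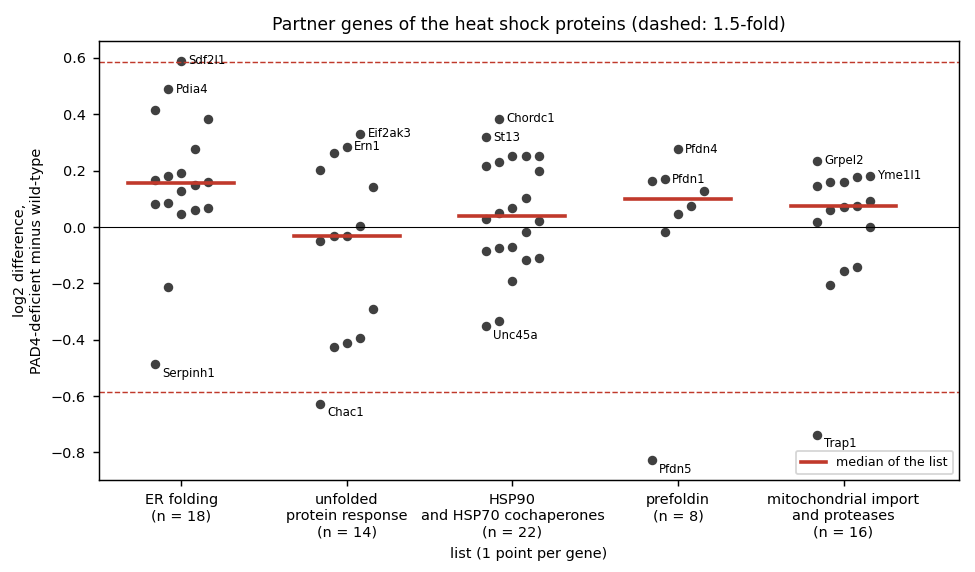
Log2 difference (PAD4-deficient minus wild-type) of the measured genes in 5 lists of chaperone partners, with thick lines at the list medians and dashed lines at 1.5-fold. Sdf2l1 (0.59) touches the upper line, and Pfdn5 (-0.83), Trap1 (-0.74) and Chac1 (-0.63) lie below the lower one.

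The cochaperones of cytosolic HSP90 and HSP70 lay on both sides of 0. Their 22 genes had a median of 0.04, with 13 above 0 and none past 1.5-fold. Chordc1 differed by 0.38 and St13 (HIP) by 0.32, and the HSP90 activator Ahsa1 and the p23 gene Ptges3 by 0.25 each. Sgta differed by -0.33. Unc45a, a myosin chaperone that binds HSP90, differed by -0.35 on its brightest probe and by 0.35 on its second. Stip1, the adaptor between HSP70 and HSP90, had 6005 units in PAD4-deficient cells and 5349 in wild-type cells, a difference of 0.22, and the kinase adaptor Cdc37 had 68580 and 74617, a difference of -0.07. Among the heat shock factor relatives, Cryab (0.17) and Hsbp1 (-0.03) were measured, and Cryaa, Hsf2bp, Hsf4 and Hsf5 were not.

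Probes of one gene often disagreed at these small differences. Of 35 members with 2 or more measured probes, 24 had all of them on 1 side of 0 and 11 had both signs, and the median gap between the highest and lowest probe was 0.14. That gap exceeds the median difference of the members, 0.09. Members with narrower gaps than that median gap included Hsp90b1, Hspd1, Hspa4l, Dnajc3a, Dnajc2, Hspa9 and Tcp1 on the higher side and Dnajb1 on the lower side. They are examples, since a median has as many gaps below it as above. The probes of Hspa1a and Dnajb6 were all below 0 with wider gaps.

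**Figure D5:**
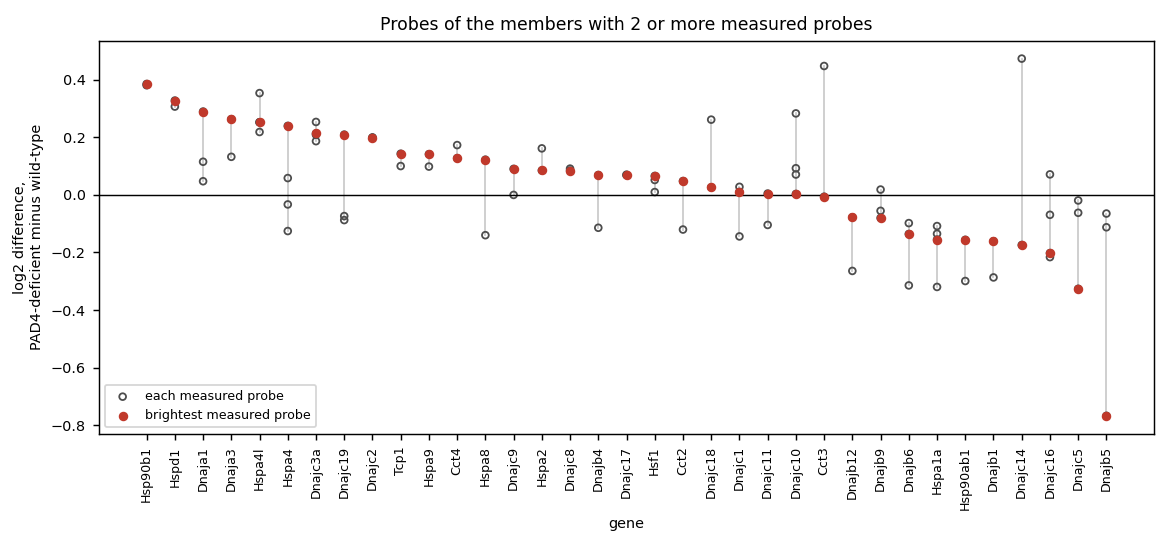
Log2 difference (PAD4-deficient minus wild-type) of every measured probe of the 35 members with 2 or more, with the brightest probe filled. Probes of Hsp90b1 (0.38 and 0.39) coincide, whereas Dnajb5 spans -0.77 to -0.06 and Dnajc14 -0.17 to 0.47.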

How the data were processed

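Both arrays were 1-colour Agilent arrays of design 014868 with probe coordinates in mm8, read with Feature Extraction 9.5.3.1, per the file headers; the submitters' processing notes name Feature Extraction 9.5. The deposited scanner files hold linear spot intensity, from which the authors had already subtracted background (the processed signal), and an error for each spot. In the deposited value table the unit is log2: for all 41174 probes it was the log2 processed signal minus a constant, 9.62 for the PAD4-deficient and 9.67 for the wild-type array, with column medians of -3.53 and -3.59, so its scale, centring and direction are known.

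The processed signal was averaged over unflagged spots and taken to log2, minus the log2 of the array's 75th percentile (787 units in PAD4-deficient, 814 in wild-type cells), so equal raw signals give about 0.05. Control spots and flagged spots were left out, and 4 probes had no unflagged spot on an array. Names came from the RefSeq table of GRCm38.p6: 24496 probes by accession, 6234 by symbol and 2386 by synonym, while 8058 kept the file's name. The scanner error is Feature Extraction's, propagated over both arrays. The at-least fold used the lowest signals among probes well above background, 18.5 units on the PAD4-deficient and 17.7 on the wild-type array, as a floor. No member probe was saturated.

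The members and the partner and marker lists were chosen with earlier results of these data known. The text names every HSP90, HSP70, HSP110, HSP60, HSP10 and CCT gene, the heat shock factors, the measured small heat shock genes, J-domain genes past 1.5-fold, and the 3 highest and 3 lowest differences of each J-domain series, of the ER and of the mitochondrion. Other genes are examples chosen after their values were seen. Alternatives were normexp (offset 50, limma 3.58.1 in R 4.3.3), quantile, median and loess (span 0.3) normalization, another percentile, the deposited table, the mean over probes, other filters on signal and a 2-fold threshold. The calculation was tested on simulated data. Python 3.11.15, numpy 2.4.6, pandas 2.3.3, scipy 1.17.1, statsmodels 0.14.6 and matplotlib 3.10.9 were used. Promoters were searched in 32851 RefSeq windows; Cct4, Dnajc11, Dnajc12, Dnajc18, Dnajc2, Dnajc5, Dnajc5b, Hsf1, Hsp90aa1, Hsp90ab1, Hspa8, Hspa9, Hspb2 and Hspc171 had no entry.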

Additional observations from a re-analysis of the deposited data

How the results depend on the processing

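The medians of all members, of the HSP90, HSP70 and HSP110, J-domain, CCT, mitochondrial and cytosolic genes moved by less than the spread between spots (0.08) under every alternative. The median of the small heat shock genes (0.37) was 0.23 with normexp, 0.19 when 1 array above background was enough and 0.092 without any signal filter. The median of the ER genes (0.03) was 0.15 with the mean over probes, and that of the ER membrane genes (0.01) 0.14. The count at least 1.5-fold higher in PAD4-deficient cells (1) was 0 with normexp and 0 at 2-fold, and 2 with no filter (Hspb8 and Hsf2, which is below background on both arrays). The count lower (2) was 1, namely Dnajb8, with normexp, with the mean over probes, at 2-fold and when all probes had to pass. It was 3 with quantile normalization, median scaling and loess (adding Hspb6), and 3 with no filter (adding Dnajc5b, below background on both arrays). By gene, the mean over probes moved 14 members by more than the spread between spots and turned the sign of 7, normexp moved 8 and turned 3, and quantile normalization moved 3 and turned 2. Median scaling shifted the median of all genes by -0.06 and turned the sign of 10 members near 0. No paired analysis was possible because each genotype had 1 array, and for the same reason no replicate could be left out. Dim members are limited by signal over background: the 9 with under 100 units hold every difference past 1.5-fold. Protein motifs planned for the J-domain genes were not run.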

Other observations

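Some chaperone genes carry other names on the array and fall outside the naming rule. Of 11 genes whose current symbol would have matched it, 9 were measured, with a median difference of 0.12 between PAD4-deficient and wild-type cells and none past 1.5-fold. Hspa13, an HSP70 of microsomes printed as Stch, had 1779 units in PAD4-deficient cells and 1614 in wild-type cells, a difference of 0.19. Dnajc25 lay highest, at 0.21, and Dnajc27 lowest, with 1078 and 1313 units and a difference of -0.23. Hspbp1, an exchange factor for cytosolic HSP70, had 7004 and 7221 units, and Hspb11, now known as a ciliary transport subunit, had 1986 and 2034, so both differed by less than the spread between spots.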
